A study of Homo sapiens with 10 samples.

Results

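The genes described here are 49 genes of the G2 phase and of mitosis, chosen by name: the cyclins and cyclin-dependent kinase 1 (CDK1) with their regulators, the mitotic kinases, checkpoint and anaphase factors, kinetochore, spindle and cytokinesis genes, and the transcription factors *FOXM1* and *MYBL2*. All 49 had a row in both deposited tables, out of 18821 distinct gene names in these tables together, and all 49 were tested in both. Entry into mitosis is driven by CDK1 bound to cyclin B, which the CDC25 phosphatases switch on and the kinase WEE1 holds back, and exit follows when the anaphase-promoting complex (APC/C) destroys cyclin B and securin. Most of these genes are transcribed late in the cell cycle, when the MuvB core joins MYBL2 and FOXM1 at a short promoter element called CHR. The tumor suppressor p53 lowers many of them indirectly: it induces *CDKN1A* (p21), p21 inhibits cyclin-dependent kinases, and the MuvB core then forms the repressive DREAM complex with RB-like proteins and E2F4.

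Gene expression was measured by RNA-seq of polyA RNA in HCT116, a human colorectal cancer cell line, grown in DMEM with fetal bovine serum and given no drug. In one experiment 3 *ZMAT3*-KO libraries were set against 3 *ZMAT3*-WT libraries. *ZMAT3* encodes a p53-induced RNA-binding protein. The *ZMAT3*-KO cells were a single clone made with CRISPR/Cas9 and a pair of sgRNAs flanking the p53 response element of an intron of *ZMAT3*. The paper describes isolating *ZMAT3*-WT clones from single cells in the same procedure. Clone and genotype cannot be told apart. The sample labels add "EV" and "unt" without explaining them. In the other, 2 sip53 libraries from cells transfected for 72 hr with a pool of 4 siRNAs were set against 2 siCTRL libraries from cells given a control siRNA. Values in the *ZMAT3* table were deposited as log2 CPM (counts scaled to library size). Its libraries share the same lowest and highest values, as after a normalization that goes beyond library size. Values in the siRNA table have no stated unit and were read as FPKM (fragments per length of transcript and size of library). Neither table gives read counts, and the sequencing depth behind a value is unknown.

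*ZMAT3*, the gene edited in the knockout cells, was low in the libraries labelled as knockout. It measured 5.00, 5.20 and 5.26 log2 CPM in the *ZMAT3*-WT libraries and 2.25, 2.34 and 2.20 log2 CPM in the *ZMAT3*-KO libraries. *ZMAT3* was also lower with sip53, at 12.0 and 13.6 FPKM in siCTRL and 3.16 and 1.97 FPKM in sip53 libraries. Of 10 colorectal epithelial markers, 7 were tested in each experiment, and *EPCAM*, *KRT8*, *KRT18* and *KRT19* were expressed in all 10 libraries. In the siRNA libraries *VIL1* was too low to test, at 0.13 to 0.22 FPKM, and *KRT20* measured 2.31 to 3.51 FPKM. In *ZMAT3*-KO cells 4 of the 7 tested (*KRT8*, *KRT18*, *KRT19* and *KRT20*) were lower, with log2 fold changes from −1.75 to −0.82. With sip53 *EPCAM* alone of 7 was called, at 0.60. Of 5 leukocyte and 6 stromal markers, *CD68* and *COL1A1* were tested in both tables and *LYZ* in the siRNA table alone, while *PDGFRB* and *VWF* stayed at or under 0.23 FPKM there and the others were not analysed here. *CD68*, a lysosomal protein gene, was higher in *ZMAT3*-KO (log2 fold change 0.98) and in sip53 libraries (2.09 ± 0.71, SE). It spread widely within the siRNA groups, at 7.97 and 2.06 FPKM in siCTRL and 11.6 and 26.9 FPKM in sip53 libraries. *COL1A1* was higher in *ZMAT3*-KO libraries (0.16) and was not called with sip53 (0.46). *LYZ*, which encodes lysozyme, measured 2.86 and 1.83 FPKM in siCTRL and 1.74 and 0.740 FPKM in sip53 libraries, opposite in direction to *CD68* and not called (−0.94). The part of these markers in the results below was not tested.

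The CHR and the CCAAT box, which binds the factor NF-Y, are the elements most often described in promoters of this class, so the promoters of the 49 genes were read from RefSeq windows that run from 250 bases before to 50 bases after each transcription start on GRCh38.p14. The windows matched 41 of the 49 genes by symbol. *WEE1*, *AURKA*, *TTK*, *UBE2C*, *BIRC5*, *TPX2*, *RACGAP1* and *FOXM1* were not matched. The 90 bases just before the start are printed below, 5′ to 3′ on the gene's strand, for cyclin B2, its kinase, the phosphatase that activates it, 2 further mitotic regulators, the gene with the deepest fall in *ZMAT3*-KO cells, and *MYBL2*, whose levels overlapped between siRNA groups. Capitals mark CHR letters (TTTGAA or TTCGAA on either strand) and CCAAT on either strand (ATTGG when reversed).
CCNB2 (chr15:59105056-59105145, plus strand): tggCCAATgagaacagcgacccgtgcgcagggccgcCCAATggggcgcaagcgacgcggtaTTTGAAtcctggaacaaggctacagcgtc
CDK1 (chr10:60778388-60778477, plus strand): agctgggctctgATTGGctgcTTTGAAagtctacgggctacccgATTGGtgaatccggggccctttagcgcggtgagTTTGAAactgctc
CDC25C (chr5:138331805-138331894, minus strand): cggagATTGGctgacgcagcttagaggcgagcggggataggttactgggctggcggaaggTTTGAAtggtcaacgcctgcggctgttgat
PLK1 (chr16:23678799-23678888, plus strand): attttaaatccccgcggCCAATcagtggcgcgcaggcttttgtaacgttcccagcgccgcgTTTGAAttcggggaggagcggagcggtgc
CDC20 (chr1:43358891-43358980, plus strand): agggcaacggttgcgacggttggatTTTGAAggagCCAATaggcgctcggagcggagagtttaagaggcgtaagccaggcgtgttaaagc
HMMR (chr5:163460542-163460631, plus strand): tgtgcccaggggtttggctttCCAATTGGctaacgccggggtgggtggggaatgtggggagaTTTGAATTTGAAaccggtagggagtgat
MYBL2 (chr20:43667024-43667113, plus strand): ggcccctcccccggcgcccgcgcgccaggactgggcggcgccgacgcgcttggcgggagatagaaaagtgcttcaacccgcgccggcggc
In *CCNB2* and *PLK1* a CHR began 29 bases before the start, and in *CDC25C* it began 30 bases before the start. *HMMR* carried 2 CHR copies in tandem, at 28 and 22 bases before the start, and its CCAAT letters overlap their own reverse, so that the same bases count on both strands. *MYBL2* held neither set of letters in these bases. *CDK1* has 2 and *CDC25C* 4 RefSeq starts, and the start with the most matches is shown.

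Over whole windows, 31 of the 41 promoters (75.6%) held a CHR, against 19.5% of 27305 genes with a window. CCAAT was present in 34 of 41 (82.9%), against 39.7% of genes. The E2F letters GCGGGAA, searched on both strands, were present in 4 of 41 (9.76%), against 7.82% of genes. Before the start alone, 23 of 41 held a CHR (56.1%, against 17.2% of genes) and 21 of 41 held both CHR and CCAAT (51.2%, against 6.24%). A match of letters is a description of the window and not of binding, and no test was run on these shares. Genes with several starts were counted once if any window matched.

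Most of these genes were higher in the sip53 libraries than in the siCTRL libraries. By limma, 38 of the 49 genes rose in sip53 cells at an unadjusted p under 0.05, against 5.86% of the 14274 genes tested that were called higher. None fell, against 9.28% of genes called lower. The median log2 fold change of the 49 genes was 0.85, which is 1.80-fold, beside −0.04 over all genes tested, and 4.08% of all genes had a fold change at or above that median. The size reached 1.5-fold in 37 of the 38 and 2-fold in 12 of the 49. No share of all genes reaching these sizes was computed. The smallest standard error among the 49 was 0.17 on the log2 scale, so small changes could not be called. The count of 37 is therefore largely set by the call itself. These fold changes were taken on the log2(FPKM + 0.1) scale, which understates changes of low genes. The 11 genes not called were *CDC25A*, *WEE1*, *PLK1*, *MAD2L1*, *PTTG1*, *CDCA3*, *INCENP*, *PRC1*, *RACGAP1*, *FOXM1* and *MYBL2*. In bulk RNA, more cells in G2 and mitosis and more mRNA in each such cell cannot be told apart.

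The separation was visible in single libraries. In 43 of the 49 genes both sip53 libraries lay above both siCTRL libraries, against 20.1% of all genes. None of the 49 had both sip53 libraries below, against 26.3% of all genes. The groups overlapped in *CDC25A*, *PLK1*, *PTTG1*, *PRC1*, *FOXM1* and *MYBL2*. With 2 libraries a group, no member passed an adjusted p of 0.05 by limma, where 0.273% of all genes did, and the lowest adjusted p of a member was 0.0837, for *NUF2*. Leaving out 1 library lowered the count of 38, and the count was 23 without siCTRL replicate 2, in which the siCTRL group is then 1 library assumed to vary as the other group does.

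**Figure D1:**
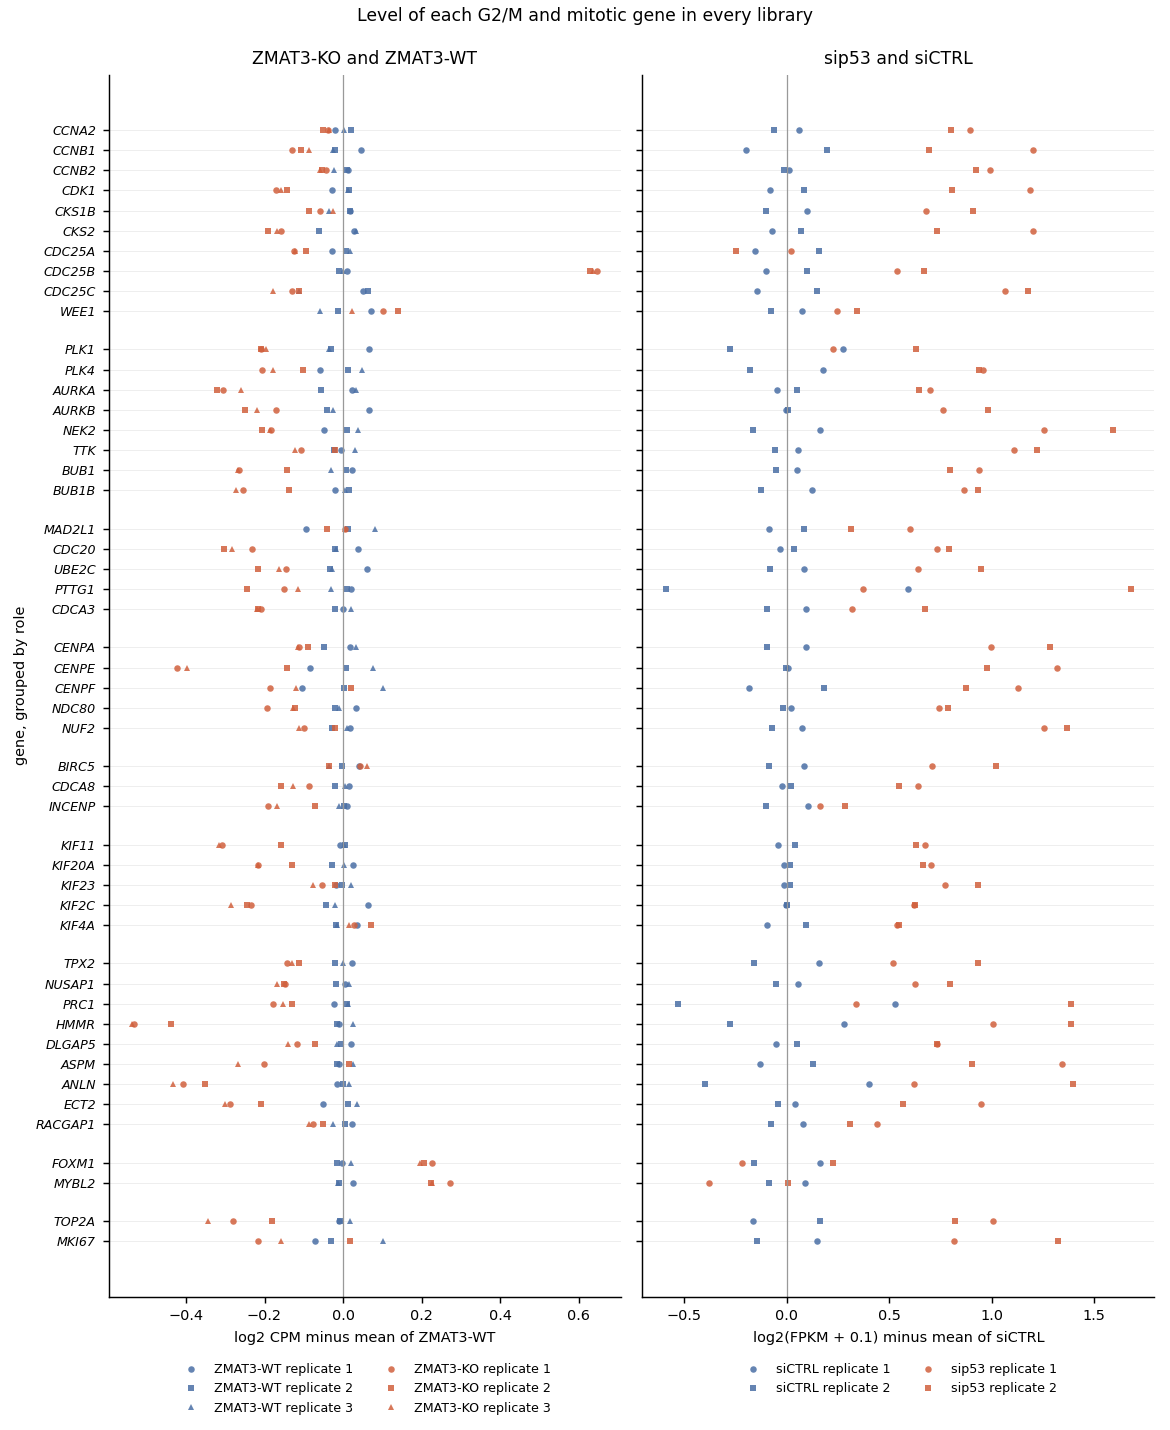
Level of each of the 49 genes in every library, in log2 units relative to the mean of the control group of that experiment (left, log2 CPM relative to ZMAT3-WT; right, log2(FPKM + 0.1) relative to siCTRL); blue symbols are control libraries, orange symbols are ZMAT3-KO or sip53 libraries, and the symbol shape gives the replicate number. On the right, both sip53 libraries lie above both siCTRL libraries in 43 of 49 genes, and on the left all 3 ZMAT3-KO libraries lie below all 3 ZMAT3-WT libraries in 36 genes, on an axis that spans smaller differences.

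The same genes were mostly lower in *ZMAT3*-KO cells, by small amounts. By limma, 33 of the 49 fell at an adjusted p under 0.05, against 30.1% of the 13029 genes tested that were called lower. *CDC25B*, *MYBL2* and *FOXM1* rose, 3 of 49, against 28.7% of genes called higher, and 13 were not called. The median log2 fold change was −0.15, beside −0.01 over all genes, and 27.5% of all genes had a fold change at or below that median. With a 1.5-fold change also required, none of the 49 was lower (4.37% of genes were) and *CDC25B* alone was higher (4.6% of genes were). The 33 falls ran from 1.05-fold to 1.42-fold. The genes not called were *CCNA2*, *CCNB2*, *CKS1B*, *CDC25C*, *WEE1*, *TTK*, *MAD2L1*, *CENPF*, *NUF2*, *BIRC5*, *KIF23*, *KIF4A* and *MKI67*.

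All 3 *ZMAT3*-KO libraries lay below all 3 *ZMAT3*-WT libraries in 36 of the 49 genes, against 32.9% of all genes, and above them in 3, against 31.3%. The remaining 10 overlapped. The count of lower genes was between 30 and 37 when any 1 library was left out. The keratin genes named above fell further in the same libraries, and their part in these differences was not tested.

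Among the cyclins, CDK1 and its regulators, 8 of 10 rose with sip53 and none fell, while 4 of 10 fell and 1 rose in *ZMAT3*-KO cells, a share of falls near the 30.1% of all genes called lower there. *CCNB1*, which encodes cyclin B1, measured 95.0 and 125 FPKM in siCTRL and 250.03 and 176 FPKM in sip53 libraries. Its level was 8.62, 8.55 and 8.55 log2 CPM in *ZMAT3*-WT and 8.44, 8.47 and 8.49 log2 CPM in *ZMAT3*-KO libraries. The groups were apart in both experiments, in opposite directions. The log2 fold change was 0.95 ± 0.26 (SE) with sip53 (limma, unadjusted p = 0.0136) and −0.11 ± 0.03 (SE) in *ZMAT3*-KO cells (limma, adjusted p = 0.00522). *CDK1*, the catalytic partner, measured 55.5 and 62.3 FPKM in siCTRL and 134 and 103 FPKM in sip53 libraries. In the knockout experiment *CDK1* measured 7.51, 7.55 and 7.55 log2 CPM in *ZMAT3*-WT and 7.37, 7.40 and 7.38 log2 CPM in *ZMAT3*-KO libraries. *CDK1* was therefore higher in both sip53 libraries and lower in all *ZMAT3*-KO libraries, without overlap. Its log2 fold changes were 1.00 ± 0.21 (SE) (limma, unadjusted p = 0.00447) and −0.16 ± 0.03 (SE) (limma, adjusted p = 3.05e-04). *CCNA2*, for cyclin A2, which acts from S phase to early mitosis, measured 36.4 and 33.5 FPKM in siCTRL and 64.9 and 60.8 FPKM in sip53 libraries, a log2 fold change of 0.85 ± 0.17 (SE) (limma, unadjusted p = 0.00382). In *ZMAT3*-WT libraries *CCNA2* measured 7.66, 7.70 and 7.69 log2 CPM, and in *ZMAT3*-KO libraries 7.65, 7.63 and 7.65. All 3 knockout values were lower, but the difference of −0.04 ± 0.03 (SE) did not pass the test (limma, adjusted p = 0.178). *CCNB2*, for cyclin B2, had log2 fold changes of 0.96 with sip53 and −0.05, not called, in *ZMAT3*-KO cells. The small CDK-binding subunits *CKS1B* and *CKS2* rose by 0.79 and 0.97 with sip53, and in *ZMAT3*-KO cells *CKS2* was called at −0.17 and *CKS1B* was not, at −0.06.

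The 3 CDC25 phosphatases, which remove the inhibitory phosphates from CDK1, did not move alike. *CDC25C* measured 8.12 and 9.97 FPKM in siCTRL and 18.9 and 20.5 FPKM in sip53 libraries, and it had the largest change of this role group with sip53, at 1.12 ± 0.19 (SE) on the log2 scale (limma, unadjusted p = 0.00171). It was at 3.62, 3.63 and 3.46 log2 CPM in *ZMAT3*-WT and 3.44, 3.45 and 3.39 log2 CPM in *ZMAT3*-KO libraries, a difference of −0.14 ± 0.06 (SE) that did not pass the test (limma, adjusted p = 0.0636). Both sip53 libraries were above control, and in the knockout experiment *ZMAT3*-WT replicate 3 all but touched the highest knockout value. *CDC25B* was the gene with the largest increase in *ZMAT3*-KO cells: 7.65, 7.63 and 7.64 log2 CPM in *ZMAT3*-WT and 8.29, 8.27 and 8.28 log2 CPM in *ZMAT3*-KO libraries. It also rose with sip53, from 77.3 and 88.7 FPKM to 120.1 and 132 FPKM. *CDC25B* (chr20:3786772-3806121, hg38) was the only one of the 49 genes called higher in both comparisons, with log2 fold changes of 0.64 ± 0.02 (SE) (limma, adjusted p = 4.36e-10) and 0.60 ± 0.19 (SE) (limma, unadjusted p = 0.0209). *CDC25A*, which also acts at the G1/S transition, fell in *ZMAT3*-KO cells by 0.11 on the log2 scale (limma, adjusted p = 0.0059), and its sip53 value of −0.11 did not pass the test (limma, unadjusted p = 0.607). *WEE1*, the inhibitory kinase, measured 28.1 and 25.3 FPKM in siCTRL and 31.7 and 33.9 FPKM in sip53 libraries. Its levels were 6.04, 5.96 and 5.91 log2 CPM in *ZMAT3*-WT and 6.07, 6.11 and 5.99 log2 CPM in *ZMAT3*-KO libraries. Both sip53 libraries were above control and the knockout groups overlapped, and neither difference passed (limma, unadjusted p = 0.149 and adjusted p = 0.0865, in this order).

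Of the 8 mitotic kinases, 7 rose with sip53 and 7 fell in *ZMAT3*-KO cells. Of all genes, 5.86% were called higher with sip53, and 28.7% higher and 30.1% lower in *ZMAT3*-KO cells. These shares stand beside the counts of each role group below. *NEK2* (chr1:211658657-211675630, hg38), a kinase of centrosome separation, showed the largest change of all 49 genes with sip53. It measured 24.2 and 19.3 FPKM in siCTRL and 51.8 and 65.4 FPKM in sip53 libraries, and 6.01, 6.07 and 6.10 log2 CPM in *ZMAT3*-WT and 5.87, 5.85 and 5.87 log2 CPM in *ZMAT3*-KO libraries. Neither experiment had overlapping groups for *NEK2*. The log2 fold changes were 1.42 ± 0.22 (SE) (limma, unadjusted p = 0.00101) and −0.19 ± 0.03 (SE) (limma, adjusted p = 3.27e-04). *TTK*, the checkpoint kinase also called MPS1, measured 16.4 and 15.1 FPKM in siCTRL and 34.1 and 36.8 FPKM in sip53 libraries, a log2 fold change of 1.17 ± 0.17 (SE) (limma, unadjusted p = 8.45e-04). *TTK* was at 6.36, 6.34 and 6.40 log2 CPM in *ZMAT3*-WT and 6.26, 6.35 and 6.25 log2 CPM in *ZMAT3*-KO libraries. Knockout replicate 2 lay among the wild-type values, and *TTK* was the kinase not called there, at −0.08 ± 0.03 (SE) (limma, adjusted p = 0.0573).

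*PLK1*, the polo kinase that promotes mitotic entry and spindle assembly, was the kinase not called with sip53. It measured 88.1 and 60.0 FPKM in siCTRL and 84.9 and 113 FPKM in sip53 libraries. siCTRL replicate 1 was above sip53 replicate 1, so the groups overlapped, and the log2 fold change was 0.43 ± 0.27 (SE) (limma, unadjusted p = 0.17). In the knockout experiment *PLK1* measured 8.02, 7.92 and 7.92 log2 CPM in *ZMAT3*-WT and 7.75, 7.74 and 7.76 log2 CPM in *ZMAT3*-KO libraries. The knockout values lay close together and below all wild-type values, with a log2 fold change of −0.20 ± 0.03 (SE) (limma, adjusted p = 1.11e-04). *AURKA*, the centrosomal Aurora kinase, measured 46.7 and 49.99 FPKM in siCTRL and 78.6 and 75.5 FPKM in sip53 libraries. Its levels in the knockout experiment were 7.22, 7.14 and 7.23 log2 CPM in *ZMAT3*-WT and 6.89, 6.87 and 6.94 log2 CPM in *ZMAT3*-KO libraries. *AURKA* thus had the largest fall among the kinases in *ZMAT3*-KO cells, at −0.30 ± 0.03 (SE) (limma, adjusted p = 7.16e-06), beside a rise of 0.67 ± 0.17 (SE) with sip53 (limma, unadjusted p = 0.00994). *AURKB*, the kinase of the chromosomal passenger complex, measured 52.7 and 53.1 FPKM in siCTRL and 89.8 and 105 FPKM in sip53 libraries, with a log2 fold change of 0.87 ± 0.18 (SE) (limma, unadjusted p = 0.00413). *AURKB* was at 6.501, 6.39 and 6.41 log2 CPM in *ZMAT3*-WT and 6.26, 6.18 and 6.21 log2 CPM in *ZMAT3*-KO libraries, with a log2 fold change of −0.21 ± 0.04 (SE) (limma, adjusted p = 2.98e-04). The groups of both Aurora kinases were apart in both experiments. The other 3 kinases were called in both comparisons. *PLK4*, which licenses centriole duplication, had log2 fold changes of 0.95 with sip53 and −0.16 in *ZMAT3*-KO cells. The checkpoint genes *BUB1* and *BUB1B* had 0.87 and 0.90 with sip53, and −0.22 and −0.22 in *ZMAT3*-KO cells.

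The 5 checkpoint and APC/C factors showed fewer calls with sip53, with 2 rising and none falling, while 4 fell in *ZMAT3*-KO cells. *CDC20*, the APC/C activator of anaphase, measured 116 and 122 FPKM in siCTRL and 198 and 206 FPKM in sip53 libraries. It was at 8.70, 8.65 and 8.65 log2 CPM in *ZMAT3*-WT and 8.43, 8.36 and 8.38 log2 CPM in *ZMAT3*-KO libraries. No value of one group reached the other in either experiment. The log2 fold change was 0.76 ± 0.18 (SE) with sip53 (limma, unadjusted p = 0.00651) and −0.27 ± 0.03 (SE) in *ZMAT3*-KO cells (limma, adjusted p = 5.15e-06). *PTTG1*, which encodes securin, the separase inhibitor, had the widest spread within siRNA groups, at 262 and 115 FPKM in siCTRL and 225 and 557 FPKM in sip53 libraries, so its log2 fold change of 1.03 ± 0.57 (SE) did not pass the test (limma, unadjusted p = 0.126). *MAD2L1*, the checkpoint protein that sequesters CDC20, had the smallest difference of all 49 genes in *ZMAT3*-KO cells, at −0.01 ± 0.04 (SE) (limma, adjusted p = 0.853), and its direction turned when *ZMAT3*-WT replicate 3 or *ZMAT3*-KO replicate 2 was left out. *UBE2C*, the ubiquitin-conjugating enzyme of the APC/C, was called in both, at 0.79 with sip53 and −0.18 in *ZMAT3*-KO cells. *CDCA3* was called in *ZMAT3*-KO cells at −0.22 and not with sip53, at 0.50.

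All 5 kinetochore and centromere genes rose with sip53, 4 of them by 2-fold or more, and 3 of 5 fell in *ZMAT3*-KO cells. With 30.1% of all genes called lower in *ZMAT3*-KO cells, nothing is read from that count of falls. *NUF2*, a subunit of the NDC80 complex that holds microtubules, measured 12.3 and 11.1 FPKM in siCTRL and 28.0 and 30.3 FPKM in sip53 libraries, a log2 fold change of 1.31 ± 0.18 (SE) (limma, unadjusted p = 5.10e-04). Its levels of 5.24, 5.19 and 5.23 log2 CPM in *ZMAT3*-WT and 5.12, 5.20 and 5.11 log2 CPM in *ZMAT3*-KO libraries overlapped, and the difference of −0.08 ± 0.04 (SE) was not called (limma, adjusted p = 0.103). *CENPE*, the kinetochore kinesin, had the lowest FPKM of the 49 genes in siCTRL libraries. It measured 1.41 and 1.40 FPKM in siCTRL and 3.65 and 2.86 FPKM in sip53 libraries, and 5.49, 5.58 and 5.64 log2 CPM in *ZMAT3*-WT and 5.15, 5.43 and 5.17 log2 CPM in *ZMAT3*-KO libraries. *CENPE* was apart in both experiments, although knockout replicate 2 was well above the other knockout libraries. The log2 fold changes were 1.15 ± 0.26 (SE) (limma, unadjusted p = 0.00565) and −0.32 ± 0.07 (SE) (limma, adjusted p = 0.00107). *CENPA*, the histone H3 variant that marks centromeres, rose by 1.14 with sip53 and was at −0.11 in *ZMAT3*-KO cells, where it was called. *NDC80* was called in both, at 0.77 and −0.15. *CENPF*, a large kinetochore protein gene, rose by 1.00 with sip53 and was not called in *ZMAT3*-KO cells, at −0.10.

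In the chromosomal passenger complex, which corrects faulty kinetochore attachments, 2 of 3 genes rose with sip53 and 2 of 3 fell in *ZMAT3*-KO cells. Beside the 30.1% of all genes called lower in *ZMAT3*-KO cells, counts of falls in groups of 3 or 5 genes are descriptions only. *BIRC5*, which encodes survivin, measured 80.6 and 71.7 FPKM in siCTRL and 125 and 154 FPKM in sip53 libraries, a log2 fold change of 0.86 ± 0.20 (SE) (limma, unadjusted p = 0.00676). In the knockout experiment *BIRC5* was at 8.15, 8.11 and 8.07 log2 CPM in *ZMAT3*-WT and 8.15, 8.07 and 8.17 log2 CPM in *ZMAT3*-KO libraries. These knockout groups overlapped, at 0.02 ± 0.03 (SE) (limma, adjusted p = 0.569). *INCENP*, the scaffold of the complex, was called in *ZMAT3*-KO cells at −0.14 on the log2 scale and had the smallest difference of the complex with sip53, 0.22, which was not called. All 5 mitotic kinesins rose with sip53, from 0.54 for the chromokinesin *KIF4A* to 0.85 for *KIF23*, a motor of the central spindle. *CDCA8*, which encodes borealin, a further subunit of the passenger complex, was called in both, at 0.59 and −0.12. In *ZMAT3*-KO cells 3 of the 5 kinesins fell: *KIF11*, the motor that separates spindle poles, the most at −0.26 ± 0.04 (SE) (limma, adjusted p = 1.22e-04), *KIF2C*, a microtubule depolymerase, at −0.26, and *KIF20A* at −0.19.

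Of the 9 spindle and cytokinesis genes, 7 rose with sip53 and all 9 fell in *ZMAT3*-KO cells, the only role group in which every gene fell. *HMMR* (chr5:163460203-163491941, hg38), which encodes a spindle-associated hyaluronan receptor, had the largest fall of all 49 genes. It measured 6.54, 6.54 and 6.58 log2 CPM in *ZMAT3*-WT and 6.02, 6.12 and 6.02 log2 CPM in *ZMAT3*-KO libraries, a log2 fold change of −0.50 ± 0.03 (SE) or 1.42-fold lower (limma, adjusted p = 1.02e-07). With siCTRL *HMMR* measured 27.5 and 18.6 FPKM and with sip53 45.5 and 59.3 FPKM, a log2 fold change of 1.20 ± 0.27 (SE) (limma, unadjusted p = 0.00535). *HMMR* was therefore among the 5 largest changes of both comparisons, in opposite directions. *ANLN*, for the contractile ring protein anillin, measured 8.004, 8.02 and 8.03 log2 CPM in *ZMAT3*-WT and 7.61, 7.67 and 7.59 log2 CPM in *ZMAT3*-KO libraries, and 70.3 and 40.3 FPKM in siCTRL and 81.9 and 141 FPKM in sip53 libraries. The knockout difference of −0.40 ± 0.03 (SE) was large against its spread (limma, adjusted p = 1.56e-07). The sip53 difference of 1.01 ± 0.38 (SE) was close to the threshold (limma, unadjusted p = 0.0425), and it was not called without the filter on low values, without the variance trend, or when siCTRL replicate 2 or sip53 replicate 2 was left out. *PRC1*, the central spindle bundler, had overlapping siRNA groups, at 112 and 53.7 FPKM in siCTRL and 98.1 and 203 FPKM in sip53 libraries. In *PRC1*, *ANLN* and *PTTG1* the higher library of each group was siCTRL replicate 1 and sip53 replicate 2. That order was not particular to them: siCTRL replicate 1 was the higher of its group in 29 of the 49 genes, and sip53 replicate 2 in 30. The remaining 6 genes of this group ran from 0.37 for *RACGAP1*, not called, to 1.13 for the spindle pole gene *ASPM* with sip53. In *ZMAT3*-KO cells they ran from −0.27 for *ECT2*, the activator of RhoA in cytokinesis, to −0.07 for its partner *RACGAP1*. *TPX2*, the activator of Aurora A, *NUSAP1* and *DLGAP5* lay between, at 0.73, 0.71 and 0.73 with sip53 and −0.13, −0.16 and −0.11 in *ZMAT3*-KO cells.

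Both transcription factors rose in *ZMAT3*-KO cells and neither was called with sip53. *FOXM1*, the forkhead factor of late cell cycle promoters, measured 51.8 and 41.4 FPKM in siCTRL and 39.8 and 54.2 FPKM in sip53 libraries. *MYBL2* (B-MYB), which partners the MuvB core, measured 49.98 and 44.2 FPKM in siCTRL and 36.1 and 47.2 FPKM in sip53 libraries. Both pairs of groups overlapped, and the log2 fold changes were 0.00 ± 0.24 (SE) and −0.19 ± 0.21 (SE), neither called (limma, unadjusted p = 0.986 and 0.415). In the knockout experiment *FOXM1* was at 7.59, 7.58 and 7.62 log2 CPM in *ZMAT3*-WT and 7.82, 7.80 and 7.79 log2 CPM in *ZMAT3*-KO libraries. *MYBL2* was at 7.91, 7.88 and 7.87 log2 CPM in *ZMAT3*-WT and 8.16, 8.11 and 8.11 log2 CPM in *ZMAT3*-KO libraries. Every knockout library was above every wild-type library for both genes. The increases were 0.21 ± 0.03 (SE) and 0.24 ± 0.03 (SE) (limma, adjusted p = 2.17e-05 and 8.62e-06). Without siCTRL replicate 2 the sip53 value of *FOXM1* was −0.16, and without sip53 replicate 1 that of *MYBL2* was 0.0054, so no direction is given for either with sip53.

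*TOP2A*, the topoisomerase that untangles sister chromatids, measured 28.4 and 35.6 FPKM in siCTRL and 64.0 and 56.2 FPKM in sip53 libraries, and 7.99, 7.99 and 8.02 log2 CPM in *ZMAT3*-WT and 7.72, 7.82 and 7.66 log2 CPM in *ZMAT3*-KO libraries. Its groups were apart in both experiments, with log2 fold changes of 0.91 ± 0.20 (SE) (limma, unadjusted p = 0.00538) and −0.27 ± 0.04 (SE) (limma, adjusted p = 4.79e-05). *MKI67*, the proliferation marker Ki-67, measured 29.2 and 23.9 FPKM in siCTRL and 46.6 and 66.2 FPKM in sip53 libraries, a log2 fold change of 1.07 ± 0.24 (SE) (limma, unadjusted p = 0.00607). In the knockout experiment *MKI67* was at 9.02, 9.06 and 9.19 log2 CPM in *ZMAT3*-WT and 8.88, 9.11 and 8.93 log2 CPM in *ZMAT3*-KO libraries. Knockout replicate 2 exceeded 2 of the wild-type libraries, and the difference of −0.12 ± 0.06 (SE) was not called with it (limma, adjusted p = 0.0798).

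Set side by side, 26 of the 49 genes rose with sip53 and fell in *ZMAT3*-KO cells, 11 rose with sip53 and were not called in *ZMAT3*-KO cells, and *CDC25B* rose in both. Of the 11370 genes tested in both tables and matched by symbol, these shares were 1.93%, 1.98% and 1.7%. Because 38 of the 49 rose with sip53 and 33 fell in *ZMAT3*-KO cells, a large joint count needs no link gene by gene. The experiments share no library, and their tables were normalized separately, so the difference between them was not tested. Across the 49 genes the log2 fold changes of the experiments had a Pearson correlation of −0.41, beside −0.03 over the 11370 genes, both descriptions over genes that are not independent replicates. *HMMR*, *ANLN* and *CENPE* lay at one end, low in *ZMAT3*-KO and high with sip53, and *MYBL2*, *FOXM1* and *CDC25B* at the other on the knockout axis.

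**Figure D2:**
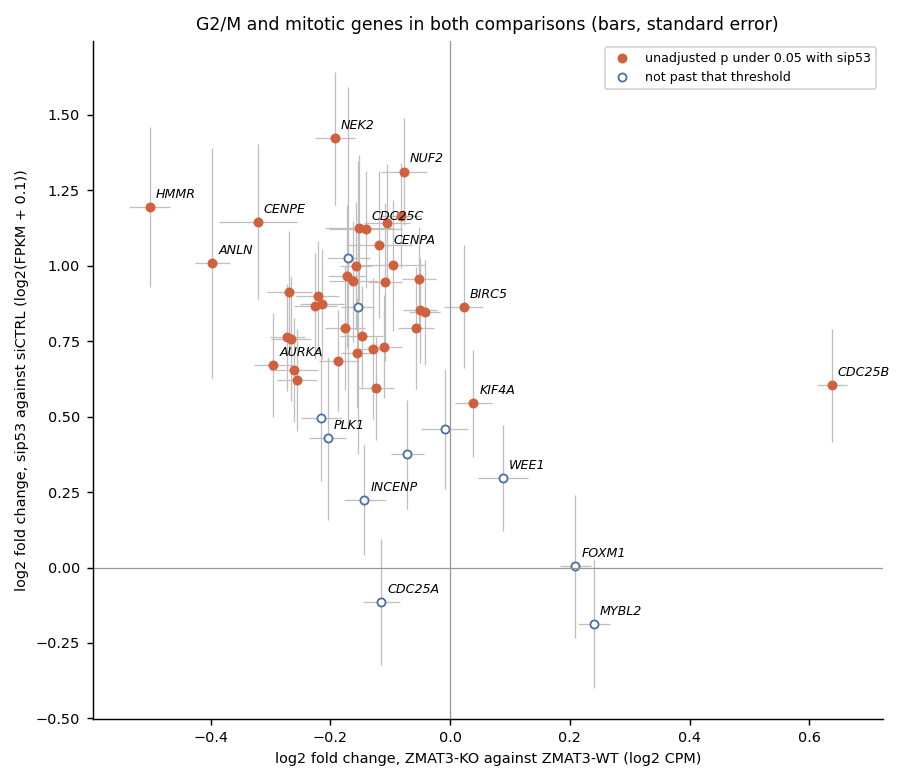
Log2 fold change of each of the 49 genes in ZMAT3-KO against ZMAT3-WT (horizontal, log2 CPM) and in sip53 against siCTRL (vertical, log2(FPKM + 0.1)), with standard errors as bars; filled points passed an unadjusted p of 0.05 with sip53 and open points did not. Most genes lie above 0 on the vertical axis and below 0 on the horizontal axis, FOXM1 and MYBL2 lie near 0 on the vertical axis and above 0 on the horizontal axis, and CDC25B stands apart at 0.64 and 0.60.

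Knockout replicate 2 differed from the other knockout libraries in a way that followed transcript length. It was the highest of the 3 knockout libraries in 28 of the 49 genes. Its difference from the mean of replicates 1 and 3 had a Pearson correlation of 0.78 with log10 transcript length over the 49 genes, and of 0.34 over 11988 genes matched to the annotation, both given as descriptions. The longest transcripts, of *MKI67*, *ASPM*, *CENPF* and *CENPE*, were highest in that library among the 3. Among the *ZMAT3*-WT libraries the same transcripts were highest in replicate 3. Replicates 1, 2 and 3 of *ZMAT3*-WT were the highest of their group in 22, 6 and 21 of the 49 genes. No share of all genes was computed for such counts. The relation to length was not computed within the *ZMAT3*-WT group, so it is not known to be particular to knockout replicate 2. The *ZMAT3*-KO against *ZMAT3*-WT fold change itself had a correlation of 0.01 with length over the 49 genes. Without knockout replicate 2, 37 genes were lower in place of 33, with *TTK*, *CENPF*, *NUF2* and *MKI67* added.

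**Figure D3:**
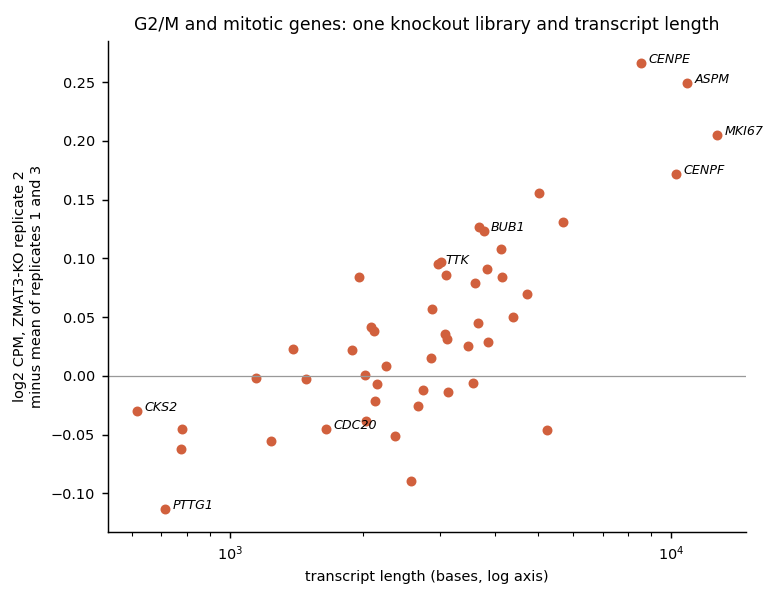
Difference in log2 CPM between ZMAT3-KO replicate 2 and the mean of ZMAT3-KO replicates 1 and 3 (vertical) against transcript length in bases (horizontal, log axis) for the 49 genes, 1 point a gene. The points climb from PTTG1 and CKS2 at the short end to ASPM, CENPE, CENPF and MKI67 at the long end, with a correlation of 0.78 with log10 length.

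Other genes of the same processes, in lists drawn from general knowledge, were read against the 5.86% of all genes called higher and the 9.28% called lower with sip53. Among 17 genes of condensin, cohesin and separase, which shape and hold sister chromatids, 8 rose and none fell, with a median log2 fold change of 0.49 and the largest rise in *SGO1*, a protector of centromeric cohesion, at 1.17 ± 0.21 (SE) (limma, unadjusted p = 0.00226). Of 26 further kinetochore genes 5 rose and none fell, with a median of 0.31 and the largest rise in the scaffold gene *KNL1* at 1.00 ± 0.18 (SE) (limma, unadjusted p = 0.0022). Of 17 APC/C subunits and regulators 3 rose and 2 fell, with a median of 0.04. *UBE2S*, the enzyme that extends ubiquitin chains, rose the most at 1.00, and the subunit gene *CDC16* fell the most at −0.47. The others that rose were the subunit gene *ANAPC15* at 0.67 and *FBXO5*, which encodes an inhibitor of the APC/C, at 0.52. Of 30 G1/S replication genes none rose and 2 fell, with a median of −0.05, and neither count was far from those shares of all genes. The 2 were *RRM2*, a subunit of ribonucleotide reductase, at −0.76 ± 0.21 (SE) (limma, unadjusted p = 0.0128), and *CCNE2* at −0.62. The median of the 49 genes, 0.85, was above the median of each of these lists; the difference was not tested.

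The genes that link p53 to these promoters were described in the same way. *CDKN1A* measured 525 and 481 FPKM in siCTRL and 34.2 and 37.7 FPKM in sip53 libraries, and 7.66, 7.66 and 7.61 log2 CPM in *ZMAT3*-WT and 7.12, 7.06 and 7.15 log2 CPM in *ZMAT3*-KO libraries. It was lower without overlap in both experiments, with log2 fold changes of −3.80 ± 0.18 (SE) with sip53 (limma, adjusted p = 0.00869) and −0.53 ± 0.03 (SE) in *ZMAT3*-KO cells (limma, adjusted p = 2.02e-08). Of the 7 tested p53 targets that restrain G2, 3 fell with sip53 (*CDKN1A*, *BTG2* and *PLK2*) and 5 fell in *ZMAT3*-KO cells, and none rose in either, beside 9.28% and 30.1% of all genes called lower. The medians of this list were −0.38 and −0.36. *PLK2*, a stress-responsive polo-like kinase, had the largest fall of this list in *ZMAT3*-KO cells, at −2.20 ± 0.04 (SE) (limma, adjusted p = 1.82e-13). Of 11 DREAM and MuvB subunits none rose and 2 fell with sip53, *E2F5* at −0.77 ± 0.18 (SE) (limma, unadjusted p = 0.00719) and the RB-like gene *RBL2* at −0.50 ± 0.19 (SE) (limma, unadjusted p = 0.0445). Of all genes 5.86% were called higher and 9.28% lower, and 11 genes are too few to set these counts apart from those shares.

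In *ZMAT3*-KO cells, where 30.1% of all genes were called lower and 28.7% higher, these lists held calls in both directions. Of the condensin, cohesin and separase genes 7 fell and 2 rose, with *SGO2* the largest rise at 0.63 and *NCAPD2*, a condensin subunit, the largest fall at −0.28. Of the further kinetochore genes 11 fell and 3 rose, from −0.56 for *NSL1* to 0.34 for *SKA2*. The APC/C list had 7 falls, the largest in *UBE2S* at −0.32, and 3 rises, the largest in *ANAPC5* at 0.28. Among DREAM and MuvB subunits 5 fell, *RBL1* the most at −0.32, and 2 rose, *TFDP2* the most at 0.48. Of the G1/S genes 14 fell and 2 rose, with the largest fall in the replicative helicase subunit *MCM5* at −0.37. With so many genes called, these counts are given as descriptions and nothing is read from them about any list. The medians of these 5 lists lay between −0.10 and −0.01, beside −0.15 for the 49 genes and −0.01 for all genes.

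**Figure D4:**
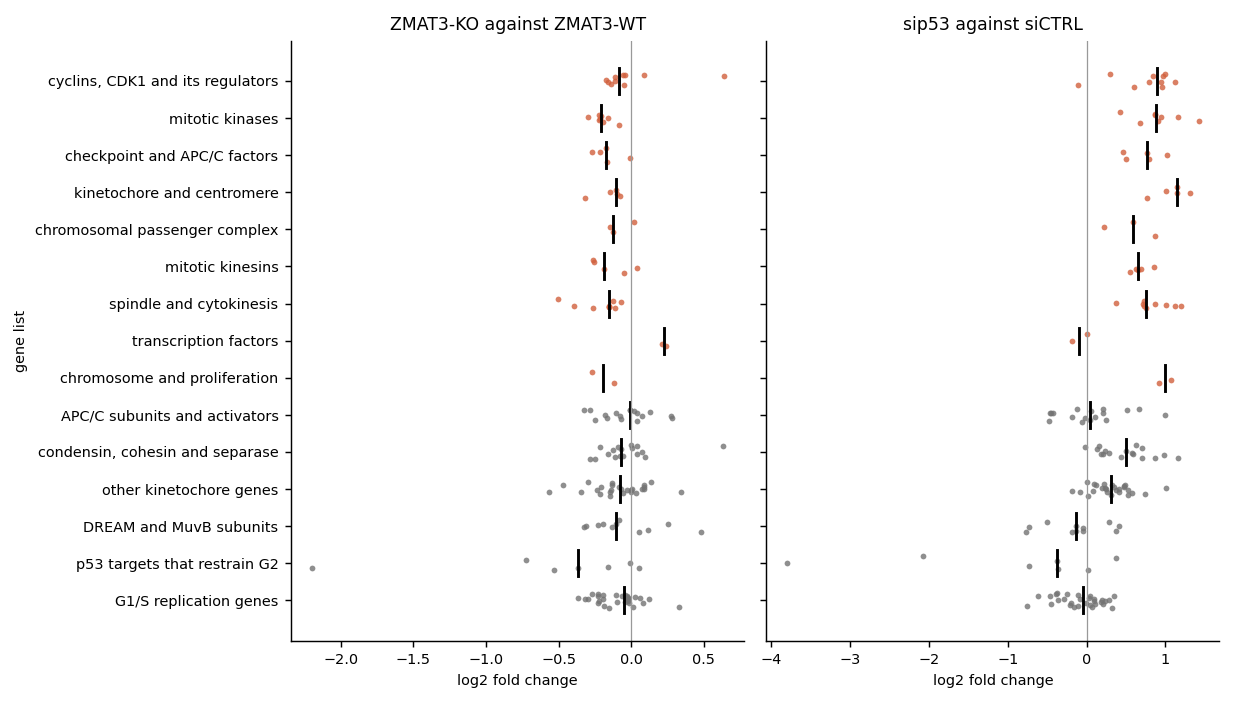
Log2 fold change of every tested gene by list, in ZMAT3-KO against ZMAT3-WT (left) and in sip53 against siCTRL (right); orange points are the 49 genes split by role, grey points are genes of the other lists, black bars are list medians and points are spread vertically for legibility. With sip53 every role group except the transcription factors has its median above 0.5, while the G1/S replication genes centre on −0.05, and in ZMAT3-KO the role group medians lie between −0.21 and −0.08 except for the transcription factors at 0.22.

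The fold changes were also set beside the promoter letters. With sip53, the 23 genes with a CHR before the start had a median log2 fold change of 0.86 with 20 called. The 18 matched genes without a CHR before the start had a median of 0.86 with 13 called. Over whole windows 31 of the 41 promoters held a CHR, so some of these 18 genes held one at or after the start. The 18 are therefore not a group free of CHR letters. *NUF2* and *HMMR* were both among the largest rises. *NUF2* had neither CHR nor CCAAT letters before its start, while *HMMR* had both. *PLK1*, also printed above with both, was not called. In *ZMAT3*-KO cells 16 of the 23 fell and 13 of the 18 fell. These counts are descriptions of small groups and were not tested.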

How the data were processed

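RNA-seq was analysed from 10 HCT116 libraries, grouped by their sample labels. The authors prepared stranded mRNA libraries for the *ZMAT3* experiment, aligned reads to hg38 with STAR, quantified genes with RSEM and deposited log2 CPM values; how these were derived is not given in the sources used here. All 6 libraries share the lowest value (−6.62), the highest value (13.51) and nearly the same total (999929 to 999931 CPM), as after a normalization to 1 distribution. The siRNA values were deposited by the authors without a stated unit and were read as FPKM; the submitters' processing notes name CASAVA 1.8.2, TopHat2 2.0.8, FastQC 0.11.2 and the builds hg19 and hg38, without saying which step made which table. The authors' own fold changes and p-values in these tables were not used. Neither table gives counts, so the depth and its precision are unknown.

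Log2 CPM was tested as deposited, and siRNA values as log2(FPKM + 0.1) after genes averaging under 0.5 FPKM were dropped. Each table was fitted in limma 3.58.1 under R 4.3.3, with empirical Bayes moderation that followed mean expression, no covariates, and two-sided p-values adjusted by Benjamini-Hochberg across all its tested genes. Calls were made at an adjusted p under 0.05 (*ZMAT3*) and an unadjusted p under 0.05 (siRNA, after the study's threshold). The scripts were tested on simulated data. The level of the siRNA target is not reported here. Values in every library are given for 14 genes fixed by name plus the 5 largest called changes in each direction, the extremes of each role group are named, and *PRC1* and *PTTG1* were added after their values were seen. The 49 genes, the lists and the motif letters were chosen with earlier results of these data known. Gene positions and transcript lengths are from the GENCODE annotation of hg38. Alternatives were another pseudocount, filters on low values, median centring, no variance trend, a replicate block and leaving out each library. Within groups, the same replicate numbers did not mark shared cultures in the labels, and the deviations from group means of same-numbered libraries had correlations of −0.04, −0.02 and −0.09 (*ZMAT3*) and −0.62 (siRNA), so replicate numbers were not used to pair libraries.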

Additional observations from a re-analysis of the deposited data

How the results depend on the processing

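In *ZMAT3*-KO cells every alternative kept the counts near those reported. Between 31 and 37 genes were lower and 3 or 4 higher under the other settings. Between 30 and 37 were lower, with medians from −0.16 to −0.13, when any 1 library was left out. The filter on low values, the pseudocount and median centring could change little here, so they say little about stability. The lowest of the 49 genes averaged 3.57 log2 CPM in *ZMAT3*-WT, and centring moved the median of all genes by 0.0005. The calls of *ASPM* and *RACGAP1* were lost without the variance trend and, with that of *CENPA*, when some single libraries were left out. The sip53 count of 38 was less stable. It was 24 with a replicate block, in which the replicate numbers pair the libraries, 0 at an adjusted p, and between 23 and 33 when any 1 library was left out, where a group of 1 library is assumed to vary as the other does. A crossed pairing of the siRNA libraries, chosen after seeing the data, gave 45. The causes were not tested. The sip53 median was 0.92 after centring each library on its median gene, and between 0.73 and 0.84 when any 1 library was left out. The replicate block gave 37 lower and 4 higher genes in *ZMAT3*-KO cells, and no gene turned direction under it. Leaving out single libraries turned the direction of genes that were not called: *MAD2L1* in *ZMAT3*-KO cells (−0.056 to 0.031), and *CDC25A* (−0.27 to 0.042), *FOXM1* (−0.22 to 0.23) and *MYBL2* (−0.38 to 0.0054) with sip53. No gene fell with sip53 under any setting run. Neither table gives counts, so what depth limits is unknown.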

Other observations

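The promoter letters were also counted in genes outside the 49, an alternative chosen after seeing the data. With sip53, 52 of 477 tested genes with both CHR and CCAAT before the start were called higher (10.9%) and 36 were called lower (7.55%), with a median log2 fold change of 0.01. Of 4885 tested genes with neither set of letters, 225 were called higher (4.61%) and 525 lower (10.7%), with a median of −0.06. The shares with CCAAT alone were 5.58% higher and 8.98% lower, and those with CHR alone were 5.89% and 9.64%. In *ZMAT3*-KO cells the genes with both were called higher in 30.2% and lower in 31.5% of 486, beside 29.7% and 30.5% of 5085 genes with neither. These shares are descriptions with no test, and genes that share promoter letters are not independent of each other.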
